A study of Mus musculus with 24 samples.

Results

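Of 98240 regions of open chromatin in mouse epidermal stem cells (EpdSCs), 3261 were open before and 1 week after SOX9 induction, had no peak at 2 weeks, and were open again at 12 weeks. Among these reopened regions, 1809 already had a peak at 6 weeks and 1452 did not, and the 2 subsets are given apart for the main readouts. These counts depended on the threshold: 921 regions were left when the D0, W1 and W12 scores had to reach 5, and 8359 met the rule under a common q-value minimum. That minimum, a −log10 q of 14.5, is the floor of the D0 list, so it cut no D0 peak but cut into the other lists. Its cut was uneven: the lower quartile of −log10 q over all in vivo regions was 27.4 at D0 and 9.47 at W2. The subset with a W6 peak was the larger as deposited, but the smaller with lists cut to equal length (1358 against 1637) and under the common q minimum (3870 against 4489). The regions were built by merging peaks of the 5 in vivo lists that overlapped by at least 1 bp, and a list with any peak inside a region made it open there. Closed therefore means that no peak was kept in the list; weaker signal is not in the lists. The regions were chosen by the presence or absence of peaks at D0, W1, W2 and W12, and those 4 states are a description and carry no test.

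ATAC-seq, in which the Tn5 transposase cuts accessible DNA and tags it for sequencing, was done on 24 samples in 12 groups of 2 replicates. The in vivo cells were K14rtTA; TRE-myc-Sox9 EpdSCs of CD1 mice, in which the Krt14 promoter drives rtTA in basal keratinocytes and doxycycline (DOX) then turns on a Myc-tagged Sox9 transgene. All 5 in vivo groups, the uninduced D0 control included, carried both transgenes, and each replicate pooled several male mice. Cells negative for CD31, CD45, CD117 and CD140a, high for CD49f and Ly6A and negative for CD34 were sorted. The mice were 21 days old for D0, 28 for W1, 35 for W2 and 63 for W6. For W12, neonatal skin of that genotype was grafted onto immunocompromised Nude mice and induced after healing before the cells were sorted, so that week and tissue source cannot be told apart at W12, where reopening is scored. DOX was given to the mice by injection and then in chow. The culture groups were EpdSCs from newborn male pups, given as 1 group without DOX (noDOX) and 6 arms with DOX at 1 µg per ml. The label of the WT-SOX9 list places it days after DOX, not weeks as in vivo, and the list labels of the other arms give no time. Full-length SOX9 (WT-SOX9) was set beside a form that cannot bind DNA because it lacks the HMG box (ΔHMG-SOX9) and a form lacking the C-terminal activation domain (ΔTA-SOX9), all delivered by lentivirus into cells carrying Krt14-rtTA. The noDOX group was the WT-SOX9 line left without DOX, and no uninduced list of the other lines was used here, so noDOX also serves as their baseline. AFOS, a FOS mutant that traps AP1 partners away from chromatin, was given alone or together with SOX9, and in the sixth arm SOX9 was combined with the SWI/SNF subunit ARID1a. For SOX9+AFOS and SOX9+ARID1a the virus went into cells that carried the TRE-driven Sox9 transgene as well, so line and agent cannot be told apart between these arms. The replicates of a group were merged before peaks were called, so each of the 12 lists stands alone. No value below has a replicate check or a p-value, and the 95% Wilson intervals beside shares cover counting error only.

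EpdSCs of the basal layer renew the interfollicular epidermis, and their enhancers are rich in sites for AP1, GATA3, p63, KLF and GRHL factors. SOX9 is a pioneer factor of the hair follicle lineage that binds nucleosomal DNA and recruits chromatin remodellers. CTCF binds insulators and loop anchors and is used in most cell types.

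The sequences below are the central 200 bases of the reopened regions with the highest scores in which an AP1, GATA, SOX or RUNX motif was found outside exons, with 1 region per motif and subset. They are given on the plus strand of GRCm38, and capitals mark every match to these 4 motifs, read on both strands. The AP1 motif was TGACTCA. The motif of GATA factors was AGATAA. SOX factors were searched as ACAATAG, with ACAATGG as the other form. The RUNX motif was TGTGGT. The region with a W6 peak near Dnajc1 holds both an AP1 and a GATA match.
AP1 and GATA, W6 peak, near Dnajc1, chr2:18473501-18473700: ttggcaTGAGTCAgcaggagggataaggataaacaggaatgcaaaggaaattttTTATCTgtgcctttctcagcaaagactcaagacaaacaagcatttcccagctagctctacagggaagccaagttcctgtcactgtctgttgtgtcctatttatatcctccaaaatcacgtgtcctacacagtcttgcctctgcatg
SOX, W6 peak, near Mrps11, chr7:78807505-78807704: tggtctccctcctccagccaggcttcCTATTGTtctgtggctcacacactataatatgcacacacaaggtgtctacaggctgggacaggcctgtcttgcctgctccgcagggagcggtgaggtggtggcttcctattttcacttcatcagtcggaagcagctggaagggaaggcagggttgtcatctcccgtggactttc
RUNX, W6 peak, in 6430531B16Rik, chr7:139973000-139973199: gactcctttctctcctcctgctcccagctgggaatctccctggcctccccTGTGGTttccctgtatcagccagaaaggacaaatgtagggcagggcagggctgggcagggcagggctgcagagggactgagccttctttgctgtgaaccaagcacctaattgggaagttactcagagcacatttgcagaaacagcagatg
AP1, no W6 peak, in Ppp5c, chr7:17014391-17014590: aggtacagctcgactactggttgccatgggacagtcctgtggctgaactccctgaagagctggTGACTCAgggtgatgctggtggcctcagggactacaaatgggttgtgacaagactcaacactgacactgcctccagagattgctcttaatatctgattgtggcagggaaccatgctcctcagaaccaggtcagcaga
GATA, no W6 peak, in Nsun2, chr13:69563198-69563397: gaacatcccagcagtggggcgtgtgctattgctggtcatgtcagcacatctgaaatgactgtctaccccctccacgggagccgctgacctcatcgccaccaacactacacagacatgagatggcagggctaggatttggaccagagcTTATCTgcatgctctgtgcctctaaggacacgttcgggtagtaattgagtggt
SOX and AP1, no W6 peak, in Mllt3, chr4:87976442-87976641: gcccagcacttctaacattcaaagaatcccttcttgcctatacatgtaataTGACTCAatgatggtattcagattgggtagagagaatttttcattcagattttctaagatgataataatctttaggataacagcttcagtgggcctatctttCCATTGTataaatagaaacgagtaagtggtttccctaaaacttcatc
RUNX and GATA, no W6 peak, near St6galnac5, chr3:153045402-153045601: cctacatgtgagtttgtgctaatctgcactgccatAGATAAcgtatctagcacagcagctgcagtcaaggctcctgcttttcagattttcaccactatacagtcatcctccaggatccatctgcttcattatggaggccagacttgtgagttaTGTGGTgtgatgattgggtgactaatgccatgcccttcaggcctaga

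Of 48505 regions open at D0 and W1, 7827 (16.1%) had no W2 peak. Of these 7827, 3261 (41.7%) had a W12 peak and 4068 had no later peak at all. The reopened share was 25.5% (921 of 3616) when the D0, W1 and W12 scores had to reach 5, 31.2% with lists of equal length and 54.2% under the common q minimum. As deposited, the remaining 498 had a W6 peak and no W12 peak. The 3254 regions that lacked a peak at W1 alone serve below as a comparison, since they drop out of 1 list and come back, as the members with a W6 peak do, whereas the members without one are missing from 2 lists. The other comparison is the 37116 static regions open in all 5 lists.

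The reopened regions were weaker than static ones in every list, and the subset without a W6 peak came back at a lower level than it started. The peak score deposited by the authors is scaled to a similar total in every list (925672 to 996710) and has a floor of 3. Regions with a W6 peak had a median score of 5.73 at D0 (quartiles 4.13 to 8.63), 6.07 at W1, 4.96 at W6 and 5.57 at W12. Regions without a W6 peak had 6.68 at D0 (quartiles 4.48 to 10.4), 7.13 at W1 and 4.26 at W12 (quartiles 3.54 to 5.67). The medians of static regions ranged from 14.5 (W6) to 16.7 (W1). The log2 ratio of the W12 to the D0 score had a median of -0.02 with a W6 peak and -0.53 without, against -0.14 in static regions. The W12 score exceeded the D0 score in 48.9% of regions with a W6 peak, 22.7% of those without and 40.3% of static regions. In regions missing at W1 only it did so in 84.6%, with a median log2 ratio of W12 to D0 of 0.92. The D0, W1 and W12 scores chose the members through the floor of 3, so these levels are descriptions. The W6 level was not part of the choice beyond the split into subsets. Where a W6 peak was present its score stood at a median log2 ratio of -0.19 to D0, against -0.13 in static regions.

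**Figure D1:**
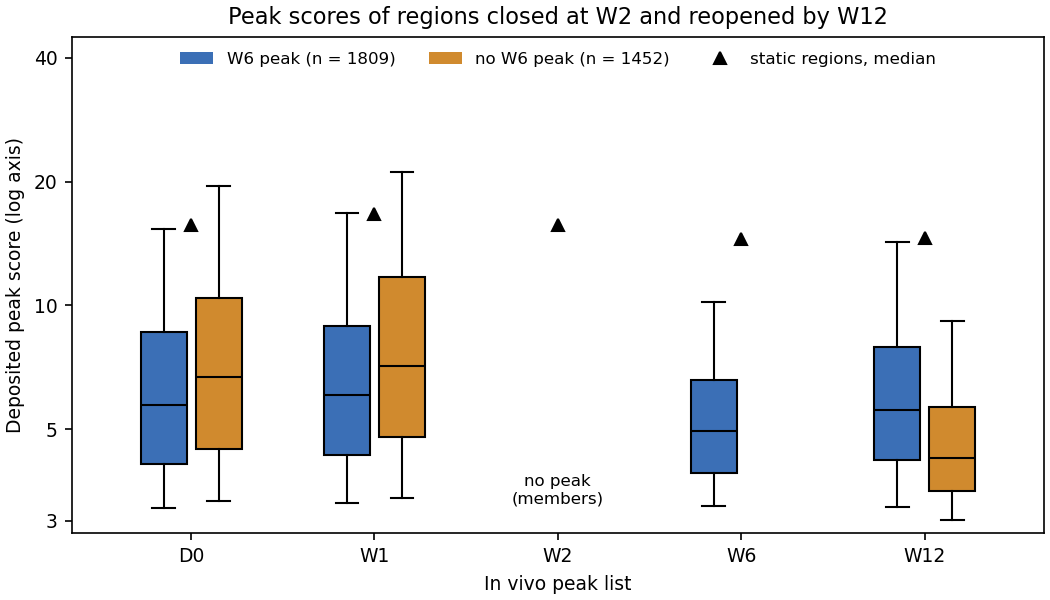
Deposited peak scores (log axis) of the reopened regions in each in vivo list, as boxes of the quartiles with the median and whiskers from the 5th to the 95th percentile, for the 1809 regions with a W6 peak and the 1452 without; triangles are the medians of static regions. The median of the subset without a W6 peak is the higher at D0 (6.68 against 5.73) and W1 (7.13 against 6.07) and the lower at W12 (4.26 against 5.57).

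Merging places the peaks of a region together, so the positions of the D0 and W12 peaks are a description set in part by the rule. The D0 and W12 summits, the bases of highest signal, lay a median of 30 bp apart and within 100 bp in 90.5% of reopened regions, against 25 bp and 89.0% in static regions. The median was 31 bp with a W6 peak (90.9% within 100 bp) and 30 bp without (89.9%). In 3247 of the 3261 the highest-scoring D0, W1 and W12 peaks shared at least 1 base. In the other 14 no base was common to all of them, and how their peaks were joined was not examined. The nearest W2 peak lay a median of 5138 bp away (lowest 61 bp), and 233 regions had one within 500 bp. The regions were 499 bp wide at the median with a W6 peak and 527 bp without, against 783 bp for static regions.

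Many members were close to the floor of the score. In 1623 of them the lowest of the D0, W1 and W12 scores was under 4, whereas all 3 scores reached 5 in 921 (579 with and 342 without a W6 peak) and 10 in 80. Just inside the rule, the 5 members with the lowest such score were just above 3 in at least 1 of the 3 lists, an example being chr10:111171258-111172032 in an intron of Osbpl8 with 4.51 at D0, 3.0002 at W1, 5.87 at W6 and 5.07 at W12. Just outside it, the 5 regions with the weakest W2 peaks had W2 scores of 3.005 to 3.02, and chr16:24400657-24401334 in an intron of Lpp was kept out by a W2 score of 3.01 beside 16.6 at D0, 12.5 at W1, 4.36 at W6 and 10.7 at W12. Of the 38408 regions open at D0, W1 and W12 with a W2 peak, 1388 had a W2 score under 4.

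The in vivo lists differed in length and in q-value floor. The W2 list held 64095 peaks, against 57334 at D0, 57767 at W1, 75956 at W6 and 71503 at W12. Its lowest deposited −log10 q-value was 4.21, against 14.5, 9.37, 5.74 and 10.1 in those lists, the lowest of the 5. The highest number in the peak names was 65316 at W2, against 82937, 72494, 84467 and 93190 in those lists. The W2 list kept 98.1% of that number, against 69.1%, 79.7%, 89.9% and 76.7%. A W2 peak at the score floor thus had the weakest q-value of the 5 lists. The part of list length, floor and number of called peaks in the gap at W2 was not tested beyond the settings given for them. Read depth is unknown here. Of the 7 EpdSC markers, 6 (Krt5, Krt14, Trp63, Itga6, Itgb4 and Col17a1) had a peak within 1 kb of the start site in all 5 lists, while Ly6a, a sort marker, had one at D0 and W2 only. Of the 5 hair follicle stem cell markers, Lhx2, Nfatc1 and Sox9 had one in all 5 lists, and Cd34 and Lgr5 at W6 and W12 only. Of 5 immune markers, only Cd74 had a promoter peak, at D0, W6 and W12, and Ptprc and Cd3e had none in any list. Of 6 melanocyte markers 2 (Mitf and Dct), and of 4 fibroblast markers 2 (Col1a1 and Pdgfra), had one in all 5 lists and the rest had none. Of 3 endothelial markers, Pecam1 had one in 4 lists, Kdr in 2 and the other in none. The part of other cells in the results was not tested. The coding part of the last Sox9 exon (chr11:112784672-112785507), which the transgene also carries, had a peak at D0 (13.5), W2 (15.1), W6 (9.22) and W12 (8.84) and none in the list labelled W1. This peak was thus present in the uninduced list and absent from an induced one, the reverse of the order expected of an induced transgene. Whether the D0 and W1 labels were exchanged was not tested, and the labels were taken as given. The D0 levels, the ratios to D0 and the class of regions missing at W1 only rest on them. Without any condition on W1 the rule gives 4752 regions.

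Reopened regions were mostly distal. The centre lay within 1 kb of a protein-coding start site in 6.81% (95% Wilson interval 5.99 to 7.73), against 32.5% of static regions and 16.2% of all in vivo regions. Under the common q minimum the share was 15.2%, against 18.8% of all in vivo regions. Regions with a W6 peak were at start sites in 8.79% (7.57 to 10.2) and regions without in 4.34% (3.41 to 5.51), the latter near the 3.64% (3.11 to 4.26) of regions open at D0 and W1 only. Introns held 46.1% of the centres with a W6 peak and 51.4% without, and intergenic sequence 47.0% and 44.1%, against 39.1% and 42.2% in static regions. The median distance to the nearest start site was 19798 bp with and 21967 bp without a W6 peak. GC content of the central 200 bp had a median of 50% with and 47.5% without a W6 peak, against 53.5% in static regions and 46% in regions open at D0 and W1 only.

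The strongest members were far above the floor before and after the gap at W2. They are the 8 of each subset with the highest minimum of the D0, W1 and W12 scores. The first, chr3:94595718-94596456, lies between genes 13371 bp from the start of Snx27, which sorts endosomal cargo, and scored 37.5 at D0, 24.6 at W1, 15.0 at W6 and 29.3 at W12. The region chr4:10930685-10931618 near 2610301B20Rik scored 23.3, 50.5, 11.1 and 24.8 in the same lists. An intronic region of Nsg1, chr5:38152294-38153112, scored 43.4, 28.3, 5.89 and 20.999, so its W6 peak was the lowest of its 4. The Dnajc1 region shown above, chr2:18473241-18473961, was nearly level, with 22.6, 20.1, 17.4 and 20.3. The region nearest to Stk3, a kinase of the Hippo pathway, was also strong at W6 (chr15:35183417-35184046, 30.3 at D0, 19.5 at W1, 16.8 at W6 and 26.5 at W12). None of the 8 strongest regions with a W6 peak had a W6 score above its D0 score. The ranking used the D0 score and not the W6 score, so this order is set in part by the choice. Over all 1809 members with a W6 peak the log2 ratio of W6 to D0 had a median of -0.19 (quartiles -0.77 to 0.33).

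Without a W6 peak, the leading region was chr7:17014193-17014788 in an intron of Ppp5c, a serine/threonine phosphatase, with 35.5 at D0, 42.7 at W1 and 19.0 at W12. An intergenic region 24321 bp from the start of Mmp12, the macrophage metalloelastase, followed with 52.5, 28.4 and 18.2 (chr9:7319733-7320386). The region of Nsun2, an RNA methyltransferase, chr13:69562807-69563789, scored 27.9, 21.6 and 15.9. Near Ncam1, which encodes a neural cell adhesion molecule, chr9:49899573-49900286 scored 17.5, 22.8 and 16.9. An intronic region of Prkg1, a cGMP-dependent kinase, scored 13.3 at D0, 16.3 at W1 and 17.1 at W12 (chr19:31442227-31442716) and was the only 1 of the 8 whose W12 score was above both earlier ones. Of these 16 regions, 9 held an AP1 match and 5 a GATA match in their central 200 bp, against 23.0% and 12.8% of all members and 19.6% and 10.5% of all in vivo regions.

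**Figure D2:**
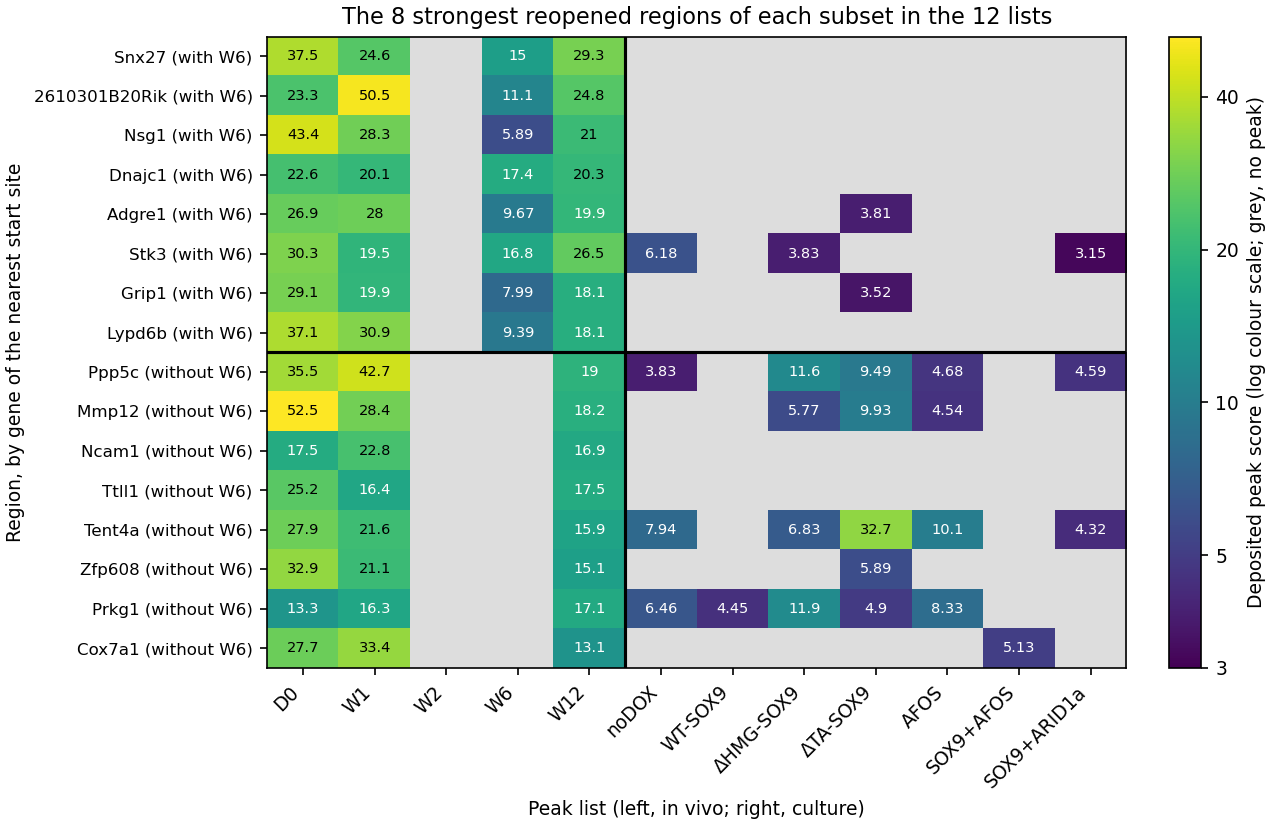
Deposited peak scores (log colour scale) of the 8 strongest reopened regions with and the 8 without a W6 peak in the 5 in vivo and 7 culture lists, each named by the gene of the nearest start site; grey means no peak. In culture, 3 of the upper 8 and 6 of the lower 8 have any peak, and the WT-SOX9 list has 1, near Prkg1 (4.45); among all reopened regions 34.4% with and 55.3% without a W6 peak have none in culture, the other way round.

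The members at start sites are named after their values were seen. By the lowest of the D0, W1 and W12 scores, the 7 strongest were those of H2-DMb1, Mroh2a, Gkn1, Tuft1, AI413582, Trpv6 and Dsg1b, in this order. The start of H2-DMb1, a chaperone that loads peptides on MHC class II, lay in chr17:34152844-34153406, which scored 19.3 at D0, 23.2 at W1, 5.33 at W6 and 16.2 at W12. It lacked a noDOX peak and had a peak of 5.24 with SOX9+AFOS alone in culture. The region at the start of Mroh2a scored 26.7, 22.9, 4.51 and 11.997 in those in vivo lists, with 29.99 in noDOX and no WT-SOX9 peak. At Gkn1, which encodes a protein of the stomach lining, the scores were 13.8 at D0, 10.3 at W1 and 8.92 at W12 beside a W6 peak near the floor, with 6.54 in noDOX and no WT-SOX9 peak. At Tuft1, which encodes an enamel protein, they were 8.70 at D0, 9.15 at W1, 10.1 at W6 and 8.96 at W12, with 5.67 in noDOX and 32.04 in WT-SOX9. AI413582 had 8.17, 9.68, 6.87 and 8.90 in those in vivo lists, with 27.2 in noDOX and 38.4 in WT-SOX9. Of the 7, these 2 had a WT-SOX9 peak, and in both it was higher than in noDOX. At the start of Trpv6, an epithelial calcium channel, chr6:41635814-41636601 scored 13.3, 8.17, 12.1 and 11.4 in those in vivo lists and had no culture peak. The start of Dsg1b, a desmosomal cadherin of differentiating layers, scored 17.8, 17.2, 7.89 and 7.996, the W6 and W12 scores being under those at D0 and W1. Cd74, another MHC class II chaperone, had the D0, W6 and W12 promoter peaks given above.

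Among genes of 12 fixed lists, 4 had a member within 1 kb of a start site: Notch1, Jag2, Smad3 and Nfatc1. The start of the receptor Notch1 (chr2:26503523-26504126) scored 3.06 at D0, 10.8 at W1 and 5.10 at W12, with no W6 peak. The start of its ligand Jag2 (chr12:112929914-112930257) scored 3.58, 4.18 and 5.15, so that W12 was the highest of the 3. A second Notch1 region, in an intron 8611 bp from the start (chr2:26494957-26495464), scored 8.49, 10.1 and 8.42. Near Rbpj, the DNA-binding partner of activated Notch, chr5:53393309-53393921 scored 21.4 at D0, 12.6 at W1, 4.26 at W6 and 11.6 at W12 and held both an AP1 and a GATA match. In all, 13 of the 239 regions nearest to the 12 Notch pathway genes were members (5.44%), against 3.32% of all in vivo regions, and they lay near 9 of the genes. The start of Smad3, a TGF-beta signal transducer (chr9:63711514-63712306), scored 4.445 at D0, 4.62 at W1 and 3.69 at W12. The start of Nfatc1, a hair follicle stem cell factor, scored 7.26 at D0, 12.3 at W1, 5.39 at W6 and 3.88 at W12.

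The Notch interval (3.21 to 9.08) and those of the other 11 lists included the 3.32% of all in vivo regions, so that no list stood apart from it at these counts. Of 293 regions nearest to 21 WNT pathway genes, ligands, receptors and regulators among them, 15 (5.12%, 3.13 to 8.27) were members, and 5 of these were among the 13 regions nearest to Wnt3. The strongest of the 5, chr11:103852458-103853881 in an intron of Nsf, scored 32.2 at D0, 36.6 at W1, 5.70 at W6 and 9.10 at W12. Near Wnt7a, chr6:91332721-91333248 scored 11.97, 8.84 and 7.15 at D0, W1 and W12, without a W6 peak and with an AP1 match. The stress keratins and alarmins had 3 members in 55 regions (5.45%), 2 of them near Il1b, a cytokine. The first, chr2:129367155-129367717 in Il1b, scored 11.6 at D0, 14.1 at W1, 4.26 at W6 and 6.44 at W12 and held an AP1 and a GATA match.

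In the lists of epidermal identity, epidermal transcription factors had 18 members in 688 regions (2.62%, 1.66 to 4.10), 12 of them without a W6 peak (beside 1452 of all 3261 members), and Gata3 had 5 of the 18. Their strongest members were chr16:25893108-25893608 near Trp63, the master factor of stratified epithelia (10.3 at D0, 7.22 at W1, 3.91 at W6 and 7.36 at W12), and chr15:37275312-37275926 in Grhl2 (7.09, 16.1, 8.06 and 7.91). Basal keratins, adhesion and basement membrane had 6 members in 223 regions (2.69%, 1.24 to 5.74), among them chr15:101705835-101706364 near Krt5 with 4.18, 5.34 and 3.92 at D0, W1 and W12. Suprabasal and barrier genes had 3 in 148 (2.03%, 0.692 to 5.79), and near Tgm3, a transglutaminase of the barrier, chr2:129980022-129980765 scored 19.5 at D0, 24.1 at W1 and 3.996 at W12. The 4 members near AP1 subunits (of 128 regions, 3.12%) lay near Atf3, Fos, Fosl1 and Jun. All 4 had a W6 peak, as did 1809 of all 3261 members. The one near Fos, chr12:85497497-85498321, scored 6.31 at D0, 8.32 at W1, 15.3 at W6 and 10.3 at W12, above its starting level in both later lists.

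Hair follicle stem cell factors and markers had 18 members in 725 regions (2.48%), 11 of them with a W6 peak. Near Sox9 itself, 126790 bp from the start, chr11:112908661-112909367 scored 12.4 at D0, 7.40 at W1, 10.5 at W6 and 11.9 at W12 and had no peak in any culture list. In Barx2, a homeobox factor, chr9:31868947-31869523 scored 10.7, 8.47, 4.10 and 9.72. The other lists had between 3 and 7 members each. The EGF receptor and its ligands had 7 in 209 (3.35%), TGF-beta and BMP 6 in 311 (1.93%), SWI/SNF and MLL regulators 3 in 141 (2.13%) and the Hedgehog pathway 3 in 195 (1.54%). Over all 12 lists, 98 of 3315 regions were members (2.96%).

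Members were spread over 2518 nearest genes, of which 1991 had 1 member and 13 had 5 or more, a group chosen after the counts were seen. Rora, a nuclear receptor, had the most, with 10 of its 50 regions, all in its introns, where 3.32% of all in vivo regions were members. All but 1 of the 10 lacked a W6 peak, as did 1452 of all 3261 members. None of the 10 had a peak in noDOX or WT-SOX9. Of all members without a W6 peak, 28.5% had one in noDOX and 14.9% in WT-SOX9. The strongest of them by minimum score, chr9:69194925-69195521, scored 14.04 at D0, 18.4 at W1 and 8.92 at W12 and held an AP1 match. Igfbp3, which binds insulin-like growth factors, was nearest to 38 regions, of which 7 were members that lay far from it, between chr11:7416670-7417311 and chr11:7605031-7605838, 5 of them without a W6 peak. The strongest, chr11:7445942-7446745, scored 44.2 at D0, 46.7 at W1 and 12.2 at W12 and held a GATA match. Has3, a hyaluronan synthase, had 5 of 14. The strongest, chr8:106789414-106790105, scored 9.99 at D0, 16.3 at W1, 10.6 at W6 and 21.9 at W12. At chr8:106862762-106863318 the score was 3.79 at D0, 3.63 at W1, 10.2 at W6 and 16.5 at W12. By contrast, chr8:106829600-106830405 (8.81 at D0 and 4.29 at W12) and chr8:106838884-106839688 (7.72 and 4.11) were lower at W12. Gata3 had 5 of its 133 regions (3.32% of all in vivo regions were members), and chr2:9839471-9839755 was the closest of them to the start (38987 bp) and had 3.72 at D0, 6.39 at W1 and 3.08 at W12, beside culture scores of 34.6 in noDOX and 13.8 in WT-SOX9.

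AP1 matches were more frequent and GATA matches less frequent in the reopened regions than in regions open at D0 and W1 only, as counts without a test. An AP1 match stood in the central 200 bp of 23.0% (95% Wilson interval 21.6 to 24.5) of reopened regions, 10.3% (9.45 to 11.3) of regions open at D0 and W1 only, 29.5% of regions missing at W1 only, 15.8% of static regions and 19.6% of all in vivo regions. The order against all in vivo regions turned under the common q minimum, to 18.6% against 19.8%. The share as deposited was alike with a W6 peak (23.0%) and without (23.1%). A GATA match stood in 24.02% (22.7 to 25.4) of regions open at D0 and W1 only, 16.4% (14.6 to 18.4) of reopened regions without a W6 peak, 9.85% (8.56 to 11.3) of those with one and 10.5% of all in vivo regions. The interval of the regions with a W6 peak included the share of all in vivo regions, and the regions without one lay between that share and the regions that had no later peak.

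SOX matches were less frequent in members and in regions open at D0 and W1 only than in all in vivo regions, as counts without a test. They were found in 2.02% (1.59 to 2.57) of reopened regions and 2.14% of regions open at D0 and W1 only, against 5.33% of all in vivo regions, 3.14% of static regions and 7.14% of regions missing at W1 only. A CTCF match was found in 5.64% (4.67 to 6.80) of regions with a W6 peak, 1.58% (1.06 to 2.37) of those without, 0.615% of regions open at D0 and W1 only and 2.40% of all in vivo regions. Without a W6 peak the order against all in vivo regions turned with the lists, to 2.99% against 2.25% with lists of equal length and 3.85% against 2.03% under the common q minimum, while the share with a W6 peak was the higher of the 2 subsets in these settings too (6.33% and 5.45%). RUNX was matched in 15.0% (13.5 to 16.8) with and 11.6% (10.1 to 13.4) without a W6 peak, against 14.9% of all in vivo regions. For ETS (CCGGAA) the shares were 3.65% with and 2.62% without a W6 peak, 8.22% in static regions and 5.04% overall. The shares for KLF (GGGTGTGG or GGGCGTGG, 6.07%, against 5.96% overall), CEBP (TTGCNNAA, 9.02% against 10.03%), GRHL (AACCGGTT or AACCTGTT, 1.32% against 1.49%) and the control TBX (AGGTGTGA, 1.41% against 1.30%) differed from those of all in vivo regions by about 1 percentage point or less. TEAD (ACATTCC) was matched in 3.28% (2.72 to 3.95), below the 4.21% of all in vivo regions. The long NFI motif was found in 1 member, and in 0.0448% of all in vivo regions. The long p63 motif was found in 14 members, or 0.429% (0.256 to 0.720), against 0.186% of all in vivo regions and 0.181% of static regions, and its shares with and without a W6 peak were 0.442% and 0.413%. A match shows that the letters are there and not that a factor binds.

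**Figure D3:**
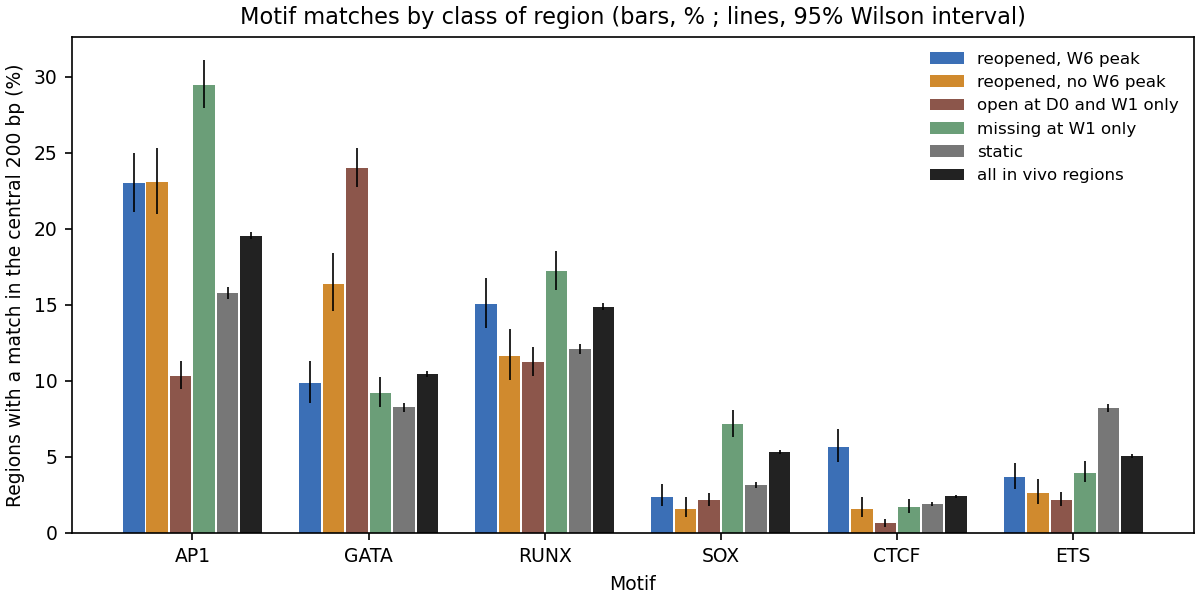
Percent of regions with a motif match in the central 200 bp, for reopened regions with and without a W6 peak and 4 other classes; bars are shares and lines 95% Wilson intervals. AP1 is about equal in both reopened subsets (23.0% and 23.1%), GATA is higher without a W6 peak (16.4% against 9.85%) and CTCF is higher with one (5.64% against 1.58%).

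The culture lists were not used to choose the regions. In noDOX culture 39.1% (37.5 to 40.8) of reopened regions had a peak, against 8.80% (7.97 to 9.71) of regions open at D0 and W1 only, 49.5% of regions missing at W1 only, 74.95% of static and 45.4% of all in vivo regions. Under the common q minimum this order turned, with 56.6% of members against 52.9% of all in vivo regions. The share as deposited was 47.7% (45.4 to 49.95) with a W6 peak and 28.5% (26.2 to 30.9) without. Of the members, 29.6% of those with a GATA match and 45.9% of those with an AP1 match had a noDOX peak, against 33.1% and 54.1% of all in vivo regions with these motifs. No culture list had a peak in 34.4% of reopened regions with a W6 peak and 55.3% of those without, against 38.2% of all in vivo regions and 81.2% of regions open at D0 and W1 only. All 7 had one in 15.2% and 5.58%, against 24.3% and 1.45%.

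Among the 1276 reopened regions with a noDOX peak, 549 (43.0%, 40.3 to 45.8) had no peak in WT-SOX9, against 21% of the 44649 in vivo regions with a noDOX peak. Under the common q minimum the share fell to 26.9% (34.5% without and 20.8% with a W6 peak), against 19.02% of all in vivo regions with a noDOX peak. The share was 56.3% (51.5 to 61.0) in the 414 regions without a W6 peak and 36.7% (33.5 to 39.9) in the 862 with one. Regions open at D0 and W1 only stood at 60.6% (55.5 to 65.5), regions missing at W1 only at 27.9% and static regions at 11.9%. With ΔHMG-SOX9, which lacks the DNA-binding domain, 21.7% (19.5 to 24.1) of reopened regions were without a peak, against 15.3% of all noDOX-present regions. With ΔTA-SOX9 it was 23.7% (21.5 to 26.2) against 16%. AFOS alone gave 22.5% (20.3 to 24.9) against 15.9%. SOX9+AFOS gave 44.7% (42.0 to 47.5) against 28%, and SOX9+ARID1a 28.1% (25.7 to 30.7) against 18.6%. These 6 arms share the noDOX list, so their shares are set side by side and were not tested against each other.

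The shares of the subset without a W6 peak ranged widely over the arms, as did those of regions open at D0 and W1 only. In the subset without a W6 peak the share without a peak was 56.3% in WT-SOX9 and 57.5% (52.7 to 62.2) in SOX9+AFOS, but 27.5% (23.5 to 32.03) in SOX9+ARID1a, 27.8% in ΔTA-SOX9, 26.1% in AFOS and 25.4% in ΔHMG-SOX9. In the subset with a W6 peak the values were 36.7% in WT-SOX9, 38.6% in SOX9+AFOS, 28.4% in SOX9+ARID1a, 21.8% in ΔTA-SOX9, 20.8% in AFOS and 19.95% in ΔHMG-SOX9. Regions open at D0 and W1 only had 60.6% in WT-SOX9, 43.6% in SOX9+AFOS, 30.4% in SOX9+ARID1a, 42.5% in ΔTA-SOX9, 32.7% in AFOS and 34.1% in ΔHMG-SOX9. In the 3 lists with AFOS or ARID1a, unlike in the others, the peak names mark fragments as the input of the peak caller, so that arm and peak calling cannot be told apart for them. An AP1 match was present in 40.8% (36.8 to 44.9) of the reopened regions that lost the peak in SOX9+AFOS and in 15.9% (13.4 to 18.8) of those that kept it, against 40.4% and 16.6% in all noDOX-present regions. With a W6 peak these shares were 45.05% and 16.3%, and without one 34.9% and 14.8%. In WT-SOX9 the same shares were 31.7% (27.9 to 35.7) and 23.5% (20.6 to 26.7) for reopened regions, against 32.4% and 20.9% of all noDOX-present regions. In the subset without a W6 peak they were 27.9% and 24.3%, with overlapping intervals (22.5 to 34.0 and 18.6 to 31.1), and in the subset with one 34.5% and 23.3%. The order was the other way in SOX9+ARID1a, with 20.6% and 29.6% of reopened regions, against 19.0% and 24.3% of all noDOX-present regions. So it was in ΔHMG-SOX9, with 21.3% and 28.6%, against 22.8% and 23.4%.

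**Figure D4:**
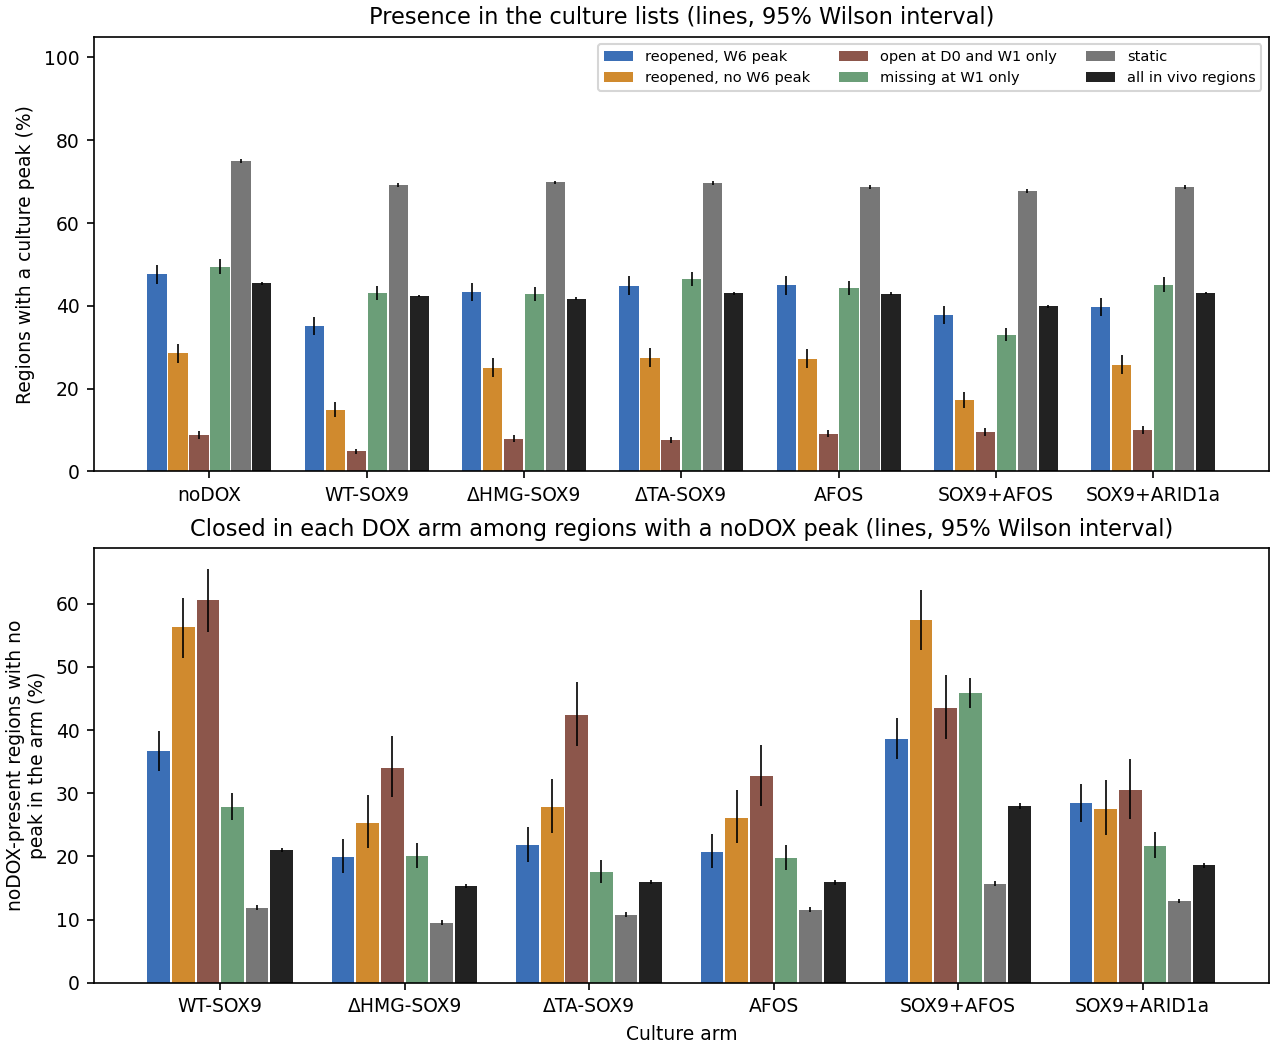
Upper plot: percent of regions of 6 classes with a peak in each culture list; lower plot: percent of the regions with a noDOX peak that had none in each DOX arm. Bars are shares and lines 95% Wilson intervals; of the reopened regions without a W6 peak, 56.3% were without a peak in WT-SOX9 and 27.5% in SOX9+ARID1a, beside 60.6% and 30.4% of regions open at D0 and W1 only.

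In WT-SOX9, weak noDOX peaks were lost more often than strong ones in each class examined, and the reopened regions had weaker noDOX peaks (median 7.56) than static regions (19.3). The closing in WT-SOX9 was therefore also read within quartiles of the noDOX score over all in vivo regions, with edges at 6.61, 13.8 and 28.03. In the lowest quartile, 77.1% (70.8 to 82.4) of reopened regions without a W6 peak and 54.9% (49.7 to 60.0) of those with one lacked a WT-SOX9 peak, against 52.4% of all regions. In the second, the shares were 65 of 130 regions (41.5 to 58.5) and 33.2% (27.9 to 39.0), against 24.6%. In the third they were 19.4% (11.4 to 30.9) and 14.1% (9.67 to 20.1), against 5.89%. The highest quartile held 82 reopened regions, of which 6 lacked a WT-SOX9 peak (7.32%, 3.40 to 15.1), against 1.18%. Within each quartile the share of each reopened subset was thus above that of all regions, although in the lowest quartile the interval of the subset with a W6 peak included the value of all regions, and so did that of the 21 regions without a W6 peak in the highest (4.76%, 0.846 to 22.7). For SOX9+ARID1a the lowest quartile gave 42.8% (36.1 to 49.7) without and 50.1% (45.0 to 55.3) with a W6 peak, against 48.4% of all regions. In the second to the fourth quartile the subset without a W6 peak had 14.6% against 18.8%, 9.68% (4.51 to 19.5) against 5.01% and 3 of 21 regions (14.3%, 4.98 to 34.6) against 2.26%. Regions open at D0 and W1 only had 72.2%, 54.2%, 30.6% and 17.6% in WT-SOX9 from the lowest to the highest quartile.

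**Figure D5:**
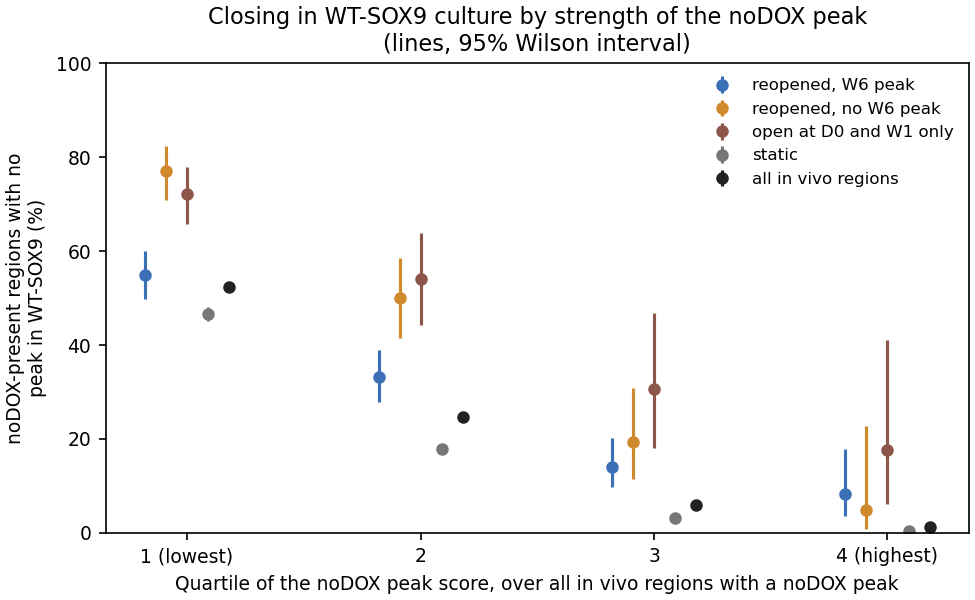
Percent of noDOX-present regions without a WT-SOX9 peak, by quartile of the noDOX score over all in vivo regions; points are shares of 5 classes and lines 95% Wilson intervals. The shares fall from the lowest to the highest quartile in all classes, from 77.1% to 4.76% in the reopened regions without a W6 peak and from 52.4% to 1.18% over all regions.

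Reopened regions that lacked a noDOX peak had a peak in WT-SOX9 less often than other in vivo regions, as a count without a test. Of 1985 such regions 6.30% (5.31 to 7.45) had a peak in WT-SOX9, against 11.8% of the 53591 in vivo regions without a noDOX peak. The share was 9.40% (7.70 to 11.4) with a W6 peak and 3.47% (2.52 to 4.76) without, beside 1.51% of regions open at D0 and W1 only. Over both subsets, the shares in the other arms were 7.51% in ΔHMG-SOX9 against 5.9%, 11.99% in ΔTA-SOX9 against 8.88%, 11.1% in AFOS against 8.67%, 11.5% in SOX9+AFOS against 13.1% and 8.87% in SOX9+ARID1a against 11.2%. Of the 16 strongest regions, 3 are given across the arms, picked after their values were seen. The Ppp5c region scored 3.83 in noDOX, 11.6 in ΔHMG-SOX9, 9.49 in ΔTA-SOX9, 4.68 in AFOS and 4.59 in SOX9+ARID1a, with no peak in WT-SOX9 or SOX9+AFOS. The Nsun2 region scored 7.94 in noDOX, 6.83 in ΔHMG-SOX9, 32.7 in ΔTA-SOX9, 10.1 in AFOS and 4.32 in SOX9+ARID1a and likewise had none in the other 2. The Mmp12 region had peaks in ΔHMG-SOX9 (5.77), ΔTA-SOX9 (9.93) and AFOS (4.54) alone.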

How the data were processed

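Per the study's methods, reads were aligned to GRCm38 with PEPATAC, replicates were merged, peaks were called with MACS2 keeping duplicates, and peaks under a normalized score were removed. The submitters' processing notes name Bowtie2 2.2.9, MACS2 2.1.1, Picard 2.3.0 and SAMtools 1.9. The authors deposited a peak score (floor 3) for all 12 lists and, in vivo, the fold enrichment (ratio) over local background, the −log10 q-value and the summit. The scale of the score is not stated in the files and was taken from the totals of the lists.

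Members and gene lists were chosen with earlier results of these data known. Motifs were searched on both strands of the central 200 bp in GRCm38.p6, and start sites were those of protein-coding transcripts in GENCODE M21; 42 regions on unplaced sequences or without sequence were left out of both. A culture peak was assigned by 1 bp of overlap. Set for naming were the 8 members per subset with the highest minimum of the D0, W1 and W12 scores, members within 1 kb of a list gene's start, the 2 strongest members nearest to each list's genes and 5 at the edge. Not all of these are described in the text, and of some lists only the weaker of the 2 or neither is given. Printed is 1 sequence per motif and subset. Shares carry 95% Wilson intervals (scipy 1.17.1); pysam 0.24.0 read the genome. Merging and motif search were tested on simulated data. The alternatives were a score of at least 5, equal list lengths, a common q minimum, direct overlap, no condition on W1, a wider gap at W2, 5 kb for start sites, the whole region for motifs and central overlap in culture; scores of at least 5 at D0, W1 and W12 alone and the noDOX quartiles were added after the data were seen.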

Additional observations from a re-analysis of the deposited data

How the results depend on the processing

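No paired analysis was possible because the replicates of each group had been merged before peaks were called, and for the same reason no replicate could be left out. Of 69 recomputed values, 34 stayed within 1.5 times (counts) or within the 95% interval (shares) and 35 did not; the cause was not tested. With a score of at least 5 in all lists there were 2109 members, 1071 of them with a W6 peak; 36.3% of regions closed at W2 reopened, 7.97% lay at a start site, 25.2% held AP1 and 2.94% SOX, 51.0% had a noDOX peak and 40.2% of these closed in WT-SOX9. With lists cut to 57334 peaks, 31.2% reopened, 25.8% held AP1, 48.5% had a noDOX peak and 38.1% of these closed. With a common −log10 q minimum of 14.5, the floor of the D0 list, the members rose to 8359 (3870 with a W6 peak). There 54.2% reopened, 15.2% lay at a start site, 18.6% held AP1 and 10.6% GATA, 56.6% had a noDOX peak and 26.9% of these closed. With D0, W1 and W12 scores of at least 5 and W2 as deposited there were 921 members (579 with a W6 peak), 25.5% reopened, 4.99% lay at a start site, 28.6% held AP1 and 15.4% GATA, 46.4% had a noDOX peak and 49.4% of these closed. Without W1 in the rule, 43.3% reopened and 27.3% held AP1. With no W2 peak within 500 bp, 5.78% lay at a start site; with 5 kb in place of 1 kb, 19.9% did. In the whole region, AP1 was found in 34.6%, GATA in 29.3% and SOX in 7.76%. Under the common q minimum the AP1 share was below that of all in vivo regions (19.8%), whereas it was above it as reported, with scores of at least 5 and with lists of equal length. In these 4 settings AP1 was more frequent in members than in regions open at D0 and W1 only (8.93% under the common q minimum), and GATA matches and closing in WT-SOX9 were more frequent without than with a W6 peak (13.2% against 7.62% and 34.5% against 20.8% under the common q minimum). Direct overlap of the D0, W1 and W12 peaks and central overlap in culture moved no value.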
